A study of Rattus norvegicus with 3 samples.

Results

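The venous endothelial cells (vEC) of the rat thymus described here were the cells of one single-cell RNA library whose deposited annotation reads EC:vEC, taken from the projected label, or from the initial cluster where that label was empty. The rule selected 344 cells, which were 2.60% (95% exact binomial interval 2.34 to 2.89) of the 13226 annotated cells of the library and 32.1% (29.4 to 35.0) of its 1070 cells with an endothelial label. The other endothelial labels were capEC, on 636 cells, and aEC, on 90 cells. These labels are taken below as capillary and arterial endothelium, and the vEC cells were compared with both.

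The study profiled thymi of Lewis rats, an inbred strain, at 8 weeks of age. Its samples were 1 single-cell RNA library of stromal cells negative for CD45 (the common leukocyte antigen), 1 single-cell RNA library of thymocytes, and 1 tissue section of 10 µm measured by Stereo-seq, a spatial RNA assay. No treatment, genotype or second condition was named for any sample, and the number of animals behind each library was not given. The series concerns the epithelium-free areas of the thymic medulla, and one question its design addresses is where stromal types lie relative to those areas.

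Venous endothelium lines the vessels that collect blood from capillary beds. In many organs it is the segment that blood leukocytes cross: selectins on the vessel wall catch passing cells, chemokines displayed on the surface activate them, and adhesion molecules of the immunoglobulin family hold them. In the thymus, vessels around the junction of cortex and medulla are known both for the entry of progenitors from the blood and for the exit of mature T cells, which follow sphingosine 1-phosphate.

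Levels are given as CPM, the UMIs (unique molecular identifiers, 1 per captured RNA molecule) of a gene per 1000000 UMIs of the summed cells. Each group is 1 set of cells from 1 library, so no test of a condition was possible, no p-value is given, and intervals in parentheses are 95% intervals that cover counting error only. The labels were also made from the same RNA counts, so a difference between labels describes what the label holds. A gene was counted as higher or lower when its CPM differed at least 2-fold between groups that together held at least 50 of its UMIs.

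The vEC cells held 3617312 UMIs in all, with a median of 9585.5 UMIs and 3436.5 genes per cell. The median was 5805.5 UMIs in capEC and 7342.5 in aEC, so the vEC cells were the most deeply sampled of the 3. Of the 344 cells, 284 (82.6%) came from the authors' cluster Endo-1 and 60 (17.4%) from Endo-2. The Endo-2 cells stood apart. The 10 genes of a fibroblast list, which includes Col1a1, Col3a1 and Dcn, summed to 22941 CPM there, 697 CPM in the Endo-1 vEC cells and 42354 CPM in cells with fibroblast labels. On the same list, 28 of 60 Endo-2 cells exceeded 5000 CPM, against 7 of 284 in Endo-1. Lymphatic genes (Prox1, Lyve1, Reln, Mmrn1 and Flt4) reached 10 UMIs in 7 of the 60 Endo-2 cells and in 0 of the 284 Endo-1 cells, which allows a share of up to 1.06% when 3 cells are set in place of 0. When ratios of the genes named here were recomputed in Endo-1 alone, 108 of 292 moved beyond their counting interval. A further 1, which had been at least 2-fold apart, changed direction, and smaller ratios were not checked for direction. Endo-1 values therefore stand beside many of the results. Of the 344 vEC barcodes, 2 also occurred in the thymocyte library.

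**Figure D1:**
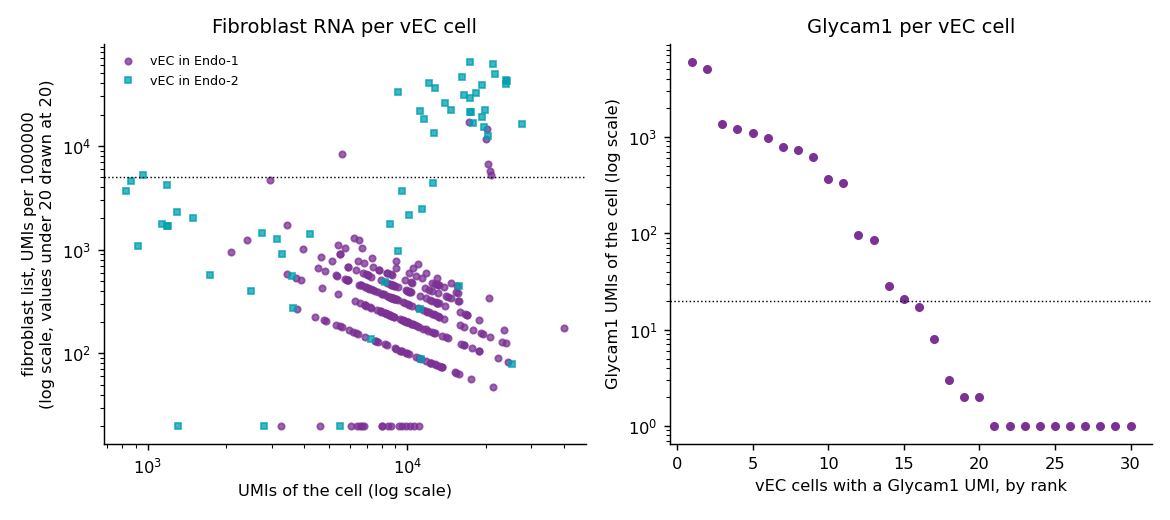
Left, each of the 344 vEC cells by its UMIs and by the summed level of the 10 fibroblast genes, both on log scales, with the dotted line at 5000 CPM; most Endo-1 cells (circles) lie under 1000 CPM, while 28 of 60 Endo-2 cells (squares) lie above the line. Right, the 30 vEC cells with any Glycam1 UMI in order of their count, on a log scale, with the dotted line at 20 UMIs; 15 cells lie above it.

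General endothelial genes were present in the cells of the label. Pecam1, the adhesion molecule of endothelial junctions, stood at 1224 CPM in vEC, 1093 CPM in capEC and 996 CPM in aEC, against 11.6 CPM in fibroblasts. Cdh5, the cadherin of endothelial junctions, stood at 539, 999 and 660 CPM in the same order, and Erg, an endothelial transcription factor, at 240, 243 and 184 CPM. Of 28 general endothelial genes, 0 were higher and 4 lower in vEC than in capEC, namely Cldn5, Podxl, Kdr and Sox7, beside 3.58% of all 9973 named genes higher and 4.54% lower. Against aEC, 2 were higher (Calcrl and Plvap) and 2 lower (Podxl and Cldn5). The median log2 ratio of the list was -0.21 to capEC and 0.06 to aEC.

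Selp, which encodes P-selectin, stood at 872 CPM (842 to 903) in vEC, 42.0 CPM in capEC and 2.50 CPM in aEC. The level was 20.7 times that of capEC (17.9 to 24.2), and 19.9 times within Endo-1 alone. Against aEC, which held only 2 Selp UMIs, the ratio was 349 (96.6 to 2884). Ankrd55, a gene of little known function, stood at 348 CPM in vEC, 14.6 CPM in capEC and 6.24 CPM in aEC. Its ratio to capEC was 23.8 (18.6 to 31.1), and 38.3 within Endo-1. Among all annotated types of at least 50 cells, Ankrd55 and Selp had the largest ratios of vEC to the next highest type, which for both was capEC. Spns2, the transporter that releases sphingosine 1-phosphate from endothelial cells, was only graded: 175 CPM in vEC, 105 CPM in capEC and 67.4 CPM in aEC, a ratio of 1.67 (1.48 to 1.88) to capEC and 2.59 to aEC. Of the 3 genes that mark the label, Selp and Ankrd55 set the type apart and Spns2 did not reach 2-fold against capEC.

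Among 15 venous identity genes, 10 were higher in vEC than in capEC and 0 lower, beside the 3.58% and 4.54% over all genes. The 10 include Selp and Ankrd55, which mark the label, and the list was chosen with earlier results of these data known. The count therefore describes the label and is not independent support for it. The list's median log2 ratio was 1.47, beside -0.07 over all genes. Vwf, the platelet-binding glycoprotein of the vessel wall, stood at 403 CPM in vEC, 61.1 CPM in capEC and 76.2 CPM in aEC, 6.60 times the capEC level (5.79 to 7.54). Ackr1, the atypical receptor that carries chemokines across venular endothelium, stood at 421, 40.01 and 19.98 CPM, 10.5 times capEC (9.005 to 12.4). Nr2f2, the transcription factor that specifies veins, stood at 287, 114 and 147 CPM, 2.52 times capEC and 3.54 times within Endo-1. Fibroblasts held 277 CPM of Nr2f2, and the part of fibroblast RNA in the level of Endo-2 was not tested. Lrg1 (1216 against 438 CPM), the matrix protease gene Tll1 (471 against 85.2 CPM), the interleukin 1 receptor gene Il1r1 (438 against 142 CPM) and Tmem252 (196 against 71.2 CPM) completed the broad group. Cytl1 was also higher, at 60.0 against 16.2 CPM, but 10 cells held 69.6% of its vEC UMIs. Not every venous gene followed: Ephb4, the venous ephrin receptor, stood at 81.8 CPM in vEC and 92.8 CPM in capEC, and Aplnr, the apelin receptor, at 119 and 215 CPM. The 10 genes of a platelet list summed to 53.1 CPM in vEC, 28.5 CPM in capEC and 16.2 CPM in aEC. Of these 10, 5 had 0 UMIs in vEC. The part of platelet RNA in the levels of Selp and Vwf was not tested.

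**Figure D2:**
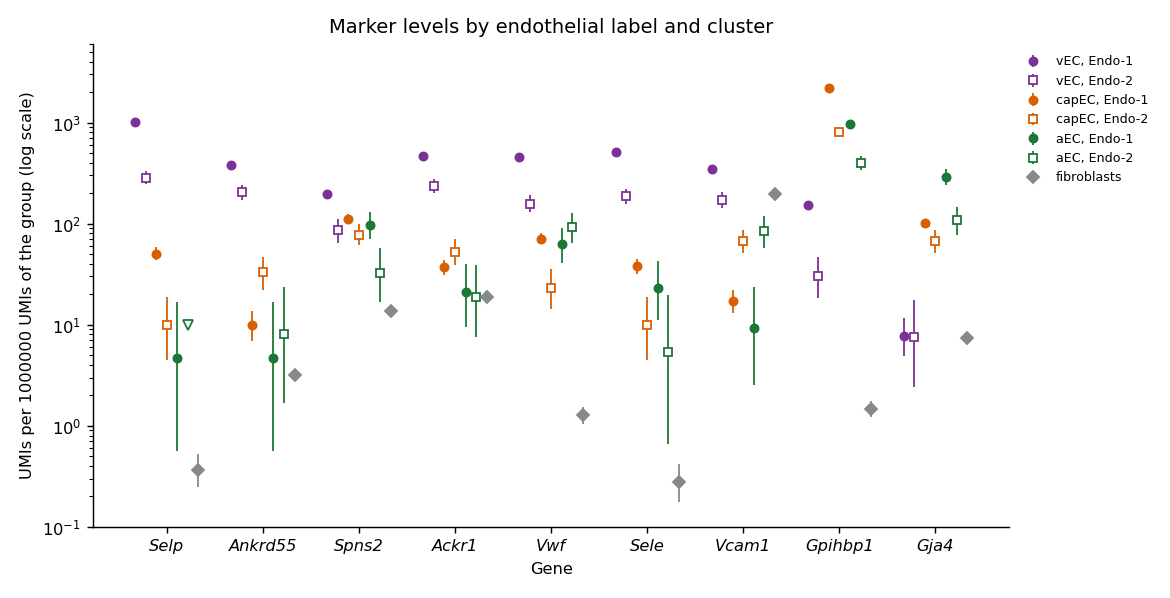
Levels of 9 genes in UMIs per 1000000 (log scale), for vEC, capEC and aEC cells of Endo-1 (filled circles) and Endo-2 (open squares) and for fibroblasts (grey diamonds), with 95% counting intervals; the open triangle is the upper limit for a group with no UMI. Selp, Ankrd55, Ackr1, Vwf and Sele are highest in the Endo-1 vEC cells, Gpihbp1 and Gja4 are lowest in vEC among the endothelial groups, and Spns2 differs least between the labels.

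Over all named genes, 357 were at least 2-fold higher and 453 at least 2-fold lower in vEC than in capEC. These were 3.58% and 4.54% of 9973 genes, and every list count against capEC below stands beside these shares. The 20 genes with the largest ratio, among those with a UMI in at least 25% of vEC cells, included Selp, Ankrd55, Sele, Vcam1, Ackr1, Tnfsf15 and Ubd, taken up below. Serpina3n, of a multigene family of protease inhibitors whose reads may be split between copies, stood at 119 against 4.72 CPM, a ratio of 25.2 (16.3 to 41.1). Cmahp, at 158 against 8.09 CPM, gave 19.6, and the matrix protease gene Adamts18, at 73.0 against 3.82 CPM, gave 19.1 (11.7 to 33.3). Calml4, Ptk2b, Piga, the adhesion gene Chl1, Upk3bl1, the netrin receptor gene Unc5c, Plpp4, the growth factor gene Pdgfc and Reep1 ranged from 8.07 to 17.3. Cd55, which protects cells from complement, stood at 111 against 9.44 CPM, 11.7 times higher, with 59.5 CPM in fibroblasts.

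The 12 genes with the largest ratio of vEC to the next highest annotated type were Ankrd55, Selp, Sele, Ackr1, Vwf, Tll1 and 6 others. Among the latter were Tacr1, the substance P receptor, at 271 CPM in vEC and 33.7 CPM in capEC, the next type (ratio 8.05, 6.77 to 9.63), and Cysltr1, a receptor for cysteinyl leukotrienes, at 258 against 63.6 CPM (4.06, 3.55 to 4.65). Piga, Susd4, Upk3bl1 and Ralgapa2 followed, with ratios to their next type from 2.95 to 4.25. Both receptors act on vascular permeability elsewhere in the body, and a UMI of Tacr1 was found in 47.1% and of Cysltr1 in 69.2% of vEC cells.

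**Figure D3:**
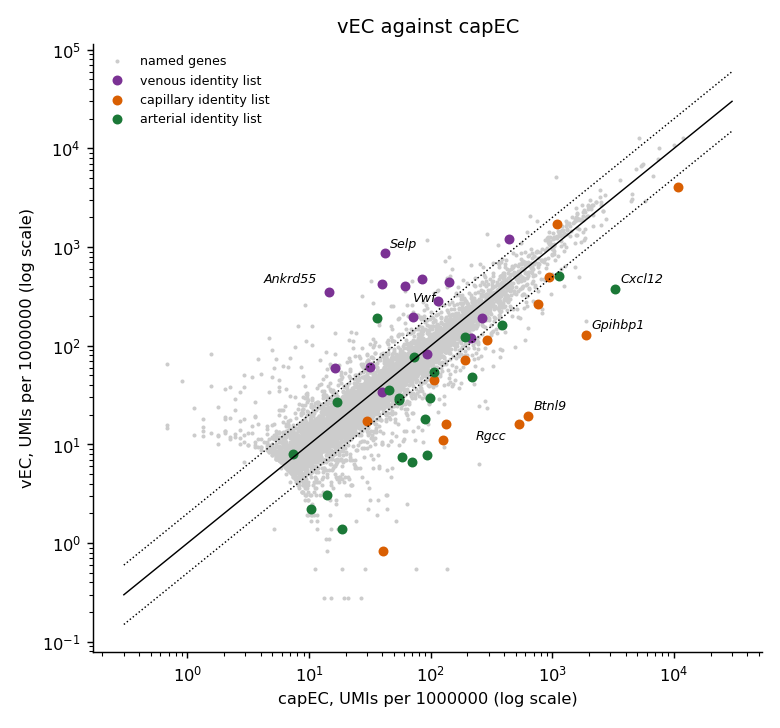
Level of each named gene with at least 50 UMIs over both types in vEC (vertical) and capEC (horizontal), in UMIs per 1000000 on log scales, with genes at 0 in either type not drawn; the solid line marks equal levels and the dotted lines 2-fold differences. The venous list (purple) lies mostly above the upper dotted line, with Selp at 872 against 42.0, the capillary list (orange) mostly below the lower one, and the arterial list is in green.

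Genes of leukocyte capture were among those higher in vEC. The selectin and homing adhesion list held 20 genes with enough UMIs, of which 6 were higher and 3 lower in vEC than in capEC, beside 3.58% and 4.54% of all genes, with a median log2 ratio of 0.06. Sele, which encodes E-selectin, stood at 451 CPM in vEC, 32.1 CPM in capEC and 14.98 CPM in aEC, a ratio to capEC of 14.0 (11.8 to 16.8). Vcam1, the ligand of integrin alpha4 beta1, stood at 318, 27.2 and 43.7 CPM, a ratio of 11.7 (9.69 to 14.2) that was 20.6 within Endo-1, and its level in fibroblasts was 197 CPM. Icam1, the ligand of the integrin LFA-1, stood at 138, 22.0 and 30.0 CPM, a ratio of 6.28 (5.04 to 7.87). Alcam, the ligand of CD6, stood at 78.0, 25.8 and 69.9 CPM, so that it set vEC apart from capEC but not from aEC. The sixth was Glycam1, which a few cells made and which is described with those cells. Junction and general adhesion genes did not take part: Icam2 stood at 364 against 421 CPM, Jam2 at 819 against 704 CPM, F11r at 205 against 193 CPM and Cd34 at 525 against 626 CPM. Cd44 (7.74 against 56.9 CPM), Podxl (92.6 against 370 CPM) and Jam3 (81.3 against 217 CPM) were lower in vEC.

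Selectin ligands need sulphated and fucosylated sugars, and 4 of 12 genes of their synthesis were higher in vEC than in capEC, with 0 lower, beside 3.58% of all genes higher. Within Endo-1 the count was 3 of 10, since Fut7 no longer reached 50 UMIs. St3gal4, a sialyltransferase, stood at 187 CPM in vEC, 87.9 CPM in capEC and 52.4 CPM in aEC, 2.13 times capEC. Chst1, a sulphotransferase, stood at 45.6, 18.2 and 8.74 CPM, 2.51 times capEC. B3gnt3, which extends the core chain, stood at 13.0 and 1.57 CPM in vEC and capEC, with 0 UMIs in aEC. Fut7, the fucosyltransferase of selectin ligands, stood at 18.0, 1.35 and 1.25 CPM, but 10 cells held 93.8% of its vEC UMIs. St3gal4 and Chst1 were thus spread over the vEC cells, while Fut7 was not. The ratio of St3gal4 fell within 2-fold when cells were thinned to an equal depth.

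A list of genes of NF-kB signalling and of cytokine receptor chains leaned one way. NF-kB is the transcription factor downstream of the receptors for tumour necrosis factor, lymphotoxin and interleukin 1. Of 24 genes in the list, 7 were higher in vEC than in capEC and 0 lower, with a median log2 ratio of 0.65. The 7 include the receptor chain genes Csf2rb and Il6st, given below, so the counts are not of NF-kB genes alone. Within Endo-1 the count was 10 higher and 0 lower, beside 4.2% of 9189 genes higher and 5.03% lower. Nfkbia, the inhibitor of NF-kB that NF-kB itself induces, stood at 1849 CPM in vEC, 744 CPM in capEC and 602 CPM in aEC, 2.49 times capEC (2.39 to 2.59). Tnfaip3, the feedback deubiquitinase A20, stood at 221, 71.5 and 57.4 CPM, 3.10 times capEC (2.72 to 3.54). Birc3, an apoptosis inhibitor and target of the pathway, stood at 131, 58.2 and 46.2 CPM. Map3k14, the kinase of the alternative pathway, stood at 21.0, 8.54 and 12.5 CPM.

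The receptors divided. Il1r1 was given above, Il6st, the shared signalling chain of the interleukin 6 family, stood at 2050, 660 and 623 CPM (3.11 times capEC, 2.98 to 3.24), and Csf2rb, the shared chain of the GM-CSF, interleukin 3 and interleukin 5 receptors, at 722, 131 and 76.2 CPM (5.50 times capEC, 5.03 to 6.03). Ltbr, the lymphotoxin beta receptor, had like levels in the 3 types, at 91.5, 80.0 and 91.1 CPM. Tnfrsf1a (131 against 98.0 CPM), Tnfrsf1b (37.6 against 40.7 CPM) and Tnfrsf11a (56.7 against 47.9 CPM) also stayed within 2-fold of capEC, and so did the NF-kB subunits Rela (40.4 against 39.1 CPM) and Nfkb1 (166 against 154 CPM). Ubd, an inducible ubiquitin-like gene, had 1177 CPM in vEC, 92.6 CPM in capEC and 12.5 CPM in aEC, 12.7 times capEC (11.5 to 14.1). Its next highest type was the epithelial type mTEC2, at 783 CPM.

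Because several known NF-kB targets were among the higher genes, the 250 bases before the start of each gene were searched on both strands for 2 spellings of the kappa-B motif, GGGATTTCC and GGAATTTCC, in RefSeq promoter sequences of the build GRCr8, which is not the build of the counts. The spellings were chosen after these promoters had been seen, so the shares that follow are not a test of enrichment. The share over all promoters counts every entry, while the gene sets take only the first entry of each gene. Either spelling occurred in 192 of 33469 promoters (0.574%), in 8 of the 275 genes higher in vEC than in capEC that had a promoter in the table (2.91%) and in 2 of 373 lower genes (0.536%). The 8 were Cxcl1, Cxcl11, F10, Icam1, Nfkbia, Tnfaip3, Ubd and Vcam1. A match is a description of the letters in this window and not evidence of binding. The promoters of 2 adhesion and inducible genes and of 2 feedback inhibitors are printed 5′ to 3′ along each gene, with the motif in capitals. All 4 genes lie on the minus strand, at chr2:206742784-206743033 (Vcam1), chr20:1392686-1392935 (Ubd), chr6:78597073-78597322 (Nfkbia) and chr1:15543980-15544229 (Tnfaip3).
Vcam1: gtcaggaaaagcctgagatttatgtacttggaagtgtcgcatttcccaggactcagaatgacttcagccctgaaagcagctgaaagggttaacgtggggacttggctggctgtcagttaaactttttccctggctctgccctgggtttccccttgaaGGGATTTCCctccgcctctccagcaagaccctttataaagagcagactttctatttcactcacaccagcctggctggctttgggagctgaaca
Ubd: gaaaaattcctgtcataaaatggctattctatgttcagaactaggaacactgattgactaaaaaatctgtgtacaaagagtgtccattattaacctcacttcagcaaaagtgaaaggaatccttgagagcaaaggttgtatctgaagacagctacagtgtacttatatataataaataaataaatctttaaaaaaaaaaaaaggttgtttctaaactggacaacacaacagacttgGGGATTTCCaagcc
Nfkbia: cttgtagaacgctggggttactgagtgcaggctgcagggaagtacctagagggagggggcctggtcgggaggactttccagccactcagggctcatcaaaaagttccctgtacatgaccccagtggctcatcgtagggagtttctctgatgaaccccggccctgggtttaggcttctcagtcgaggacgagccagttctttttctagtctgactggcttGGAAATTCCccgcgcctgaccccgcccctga
Tnfaip3: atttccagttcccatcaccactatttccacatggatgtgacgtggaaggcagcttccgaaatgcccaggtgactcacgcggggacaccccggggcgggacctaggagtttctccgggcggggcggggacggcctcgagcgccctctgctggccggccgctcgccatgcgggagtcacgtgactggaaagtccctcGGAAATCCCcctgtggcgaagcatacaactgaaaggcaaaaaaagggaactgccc
In Vcam1 and Ubd the motif reads along the gene, beginning 93 and 14 bases before the start, and in Nfkbia and Tnfaip3 it stands on the opposite strand, 31 and 55 bases before it, so that its reverse complement is what the capitals show. The promoters of Sele, Ankrd55 and Il6st held neither spelling in this window. No sequence was at hand for Selp, Spns2, Vwf, Ackr1, Csf2rb and Birc3.

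Of 18 genes of the chemokine list, 5 were higher in vEC than in capEC, namely Ackr1, Ccl7, Cxcl1, Cxcl11 and Ccl20, and 5 were lower, namely Cxcl12, Cxcr4, Cx3cl1, Cxcl9 and Cxcl16, the last of which fell within 2-fold under several other scalings. Ccl7, which draws monocytes, stood at 257 CPM in vEC, 70.6 CPM in capEC and 78.7 CPM in aEC, 3.64 times capEC (3.20 to 4.14), with 184 CPM in fibroblasts. Cxcl1, which draws neutrophils, stood at 69.7, 21.8 and 21.2 CPM. Cxcl11, a ligand of CXCR3, stood at 73.0, 5.39 and 6.24 CPM, and Ccl20, the ligand of CCR6, at 15.8 and 0.674 CPM with 0 UMIs in aEC. These were made by few cells: 10 of the 344 held 82.9% of the Cxcl1 UMIs, 89.8% of the Cxcl11 UMIs and 100% of the Ccl20 UMIs.

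Cxcl12, which retains thymic progenitors and many leukocytes, differed in the other direction. It stood at 378 CPM in vEC, 3286 CPM in capEC and 3411 CPM in aEC, 8.68-fold lower in vEC than in capEC (8.22 to 9.19) and 11.2-fold lower within Endo-1. Cxcr4, its receptor, had 3 UMIs among the vEC cells, 0.829 CPM, against 40.2 CPM in capEC, 48.5-fold lower (16.3 to 237). Ccl21, a ligand of CCR7, differed between the clusters: it stood at 75.5 CPM in the vEC cells of Endo-1 and 6042 CPM in those of Endo-2, where lymphatic and fibroblast genes were also high, and at 3857 CPM in fibroblasts. Within Endo-1 its summed level was also lower in vEC than in capEC, at 75.5 against 272 CPM, 3.60-fold lower (3.11 to 4.18). However, 1 of these capEC cells held 457 Ccl21 UMIs, beside 1018 UMIs of all 8 lymphatic list genes in that group. A Ccl21 UMI was found in 43.3% of the vEC and 48.7% of the capEC cells of Endo-1. The part of that 1 cell in the ratio was not tested. The part of the Endo-2 cells in the overall 1172 CPM was not tested.

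Il33, an alarmin stored in the nucleus, stood at 1348 CPM in vEC, 289 CPM in capEC and 479 CPM in aEC, 4.66 times capEC (4.38 to 4.95) and 7.09 times within Endo-1. Fibroblasts had a like level, 1283 CPM, and the vEC cells held 1424 CPM in Endo-1 and 1011 CPM in Endo-2. The part of fibroblast RNA in the vEC level of Il33 was not tested. Tnfsf15, a ligand of DR3 that vascular endothelium makes, stood at 60.0, 5.17 and 1.25 CPM, 11.6 times capEC (7.54 to 18.7) and 45.1 times within Endo-1. Bmp4, which acts on thymic epithelium, stood at 65.5, 26.5 and 28.7 CPM, with 157 CPM in fibroblasts. These were the 3 higher genes of the 16 in the list of cytokines and thymocyte support, in which 4 were lower and the median log2 ratio was 0.12. Within Endo-1 the count was 5 higher and 3 lower of 15. Of the lower genes, Kitlg, the ligand of Kit, stood at 283, 694 and 577 CPM, and the inhibitory ligand gene Cd274 at 79.6, 187 and 154 CPM. Tgfb2 stood at 25.4 CPM in vEC, 60.9 CPM in capEC and 330 CPM in aEC, 13.0-fold lower than in aEC. Its difference from capEC fell within 2-fold when cells were thinned and with the mean of the cells' CPM. The same held without cells holding 3 or more UMIs of other cell types. The fourth, Il7, was sparse, at 6.91, 14.4 and 32.5 CPM. Il15 had like levels, at 77.4, 67.2 and 79.9 CPM.

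Few sphingosine 1-phosphate genes, and not Spns2, differed 2-fold between vEC and capEC. Of 12 such genes, 1 was higher and 1 lower than in capEC, beside 3.58% and 4.54% of all genes. Plpp3, the phosphatase that breaks the lipid down at the cell surface, stood at 335 CPM in vEC, 980 CPM in capEC and 715 CPM in aEC, 2.93-fold lower than in capEC (2.75 to 3.13). S1pr1, the receptor that guards endothelial junctions, stood at 215, 277 and 231 CPM. Asah2, a ceramidase, was higher at 11.9 against 4.94 CPM. Within Endo-1, 0 of 11 were higher and 1 lower.

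Genes of haemostasis gave 3 higher and 2 lower of 21, beside 3.58% and 4.54% of all genes. Besides Vwf, the cyclooxygenase gene Ptgs1 stood at 84.6 CPM in vEC, 35.1 CPM in capEC and 26.2 CPM in aEC. Its ratio to capEC fell within 2-fold when cells were thinned to an equal depth. Plat, the tissue plasminogen activator, was lower at 73.8, 225 and 256 CPM, 3.05-fold lower than in capEC (2.66 to 3.51). Thrombomodulin, Thbd, stood at 336, 584 and 518 CPM, and tissue factor, F3, at 11.9 CPM in the Endo-1 vEC cells and 152 CPM in those of Endo-2, beside 310 CPM in fibroblasts.

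**Figure D4:**
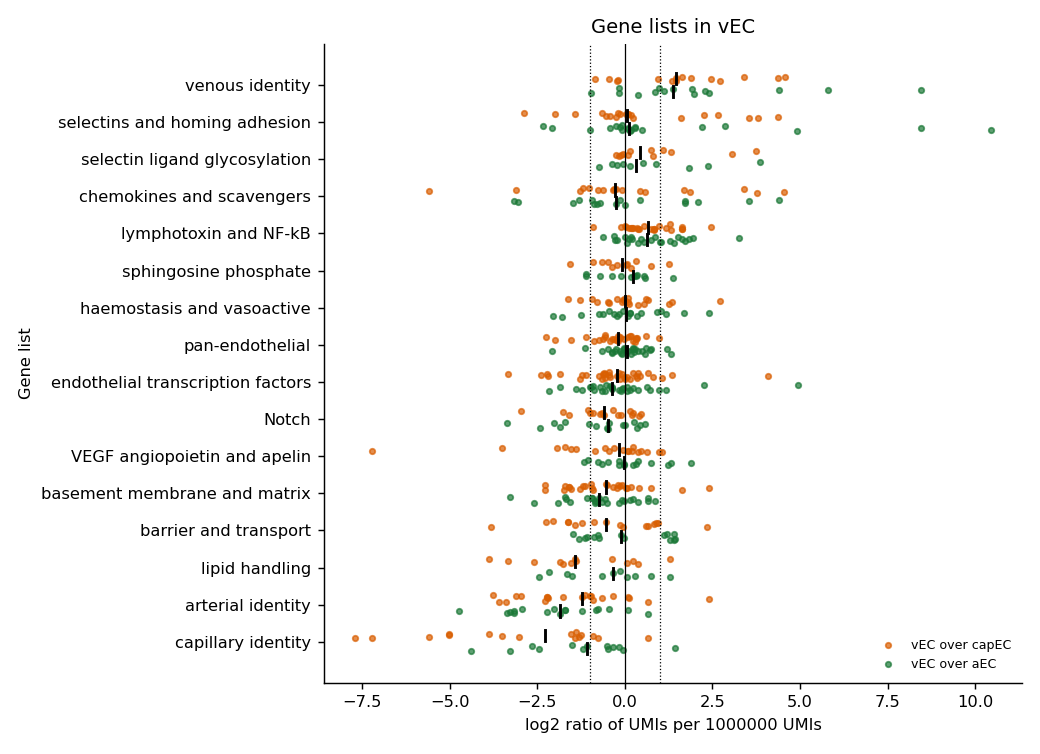
Log2 ratio of the level in vEC to capEC (orange) and to aEC (green) for the genes of 16 lists, 1 point per gene with at least 50 UMIs, with black bars at each list's median and dotted lines at 2-fold; genes at 0 in one type are drawn at their bound. The venous list sits to the right (median 1.47 against capEC) and the capillary and arterial lists to the left (medians -2.28 and -1.23).

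Most capillary genes were low in vEC. Of 16, 0 were higher and 13 lower than in capEC, with a median log2 ratio of -2.28, and within Endo-1 15 of 16 were lower. Car4, a carbonic anhydrase of capillaries, had 0 UMIs in vEC against 171 CPM in capEC, at least 206-fold lower when 3 UMIs are set in place of 0. Esm1, a gene of growing vessel tips, had 0 UMIs against 124 CPM, at least 150-fold lower. Rgcc stood at 16.3 against 532 CPM, 32.6-fold lower (25.2 to 43.0), and Btnl9 at 19.6 against 633 CPM, 32.2-fold lower (25.5 to 41.4). Gpihbp1, which holds lipoprotein lipase on capillaries, stood at 130 against 1896 CPM, 14.6-fold lower (13.3 to 16.0), and a UMI of it was still found in 35.6% of Endo-1 vEC cells. C1qtnf9 (6.36 against 250 CPM), Rbp7 (177 against 1879 CPM), Slc26a10 (9.40 against 130 CPM) and Clic5 (23.2 against 291 CPM) were the other genes among the 10 lowest ratios, with Unc5b and Tcf15. Aqp1, a water channel named in the capillary list, was the exception, at 1718 CPM in vEC, 1098 CPM in capEC and 641 CPM in aEC.

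The list of lipid handling overlaps the capillary one. Of its 13 genes, 1 was higher and 8 lower than in capEC. Among the 8, Gpihbp1, Cd36 and Fabp4 were also counted in the capillary list. Fabp4, a fatty acid carrier, stood at 4044 CPM in vEC and 10722 CPM in capEC, Cd36, a fatty acid receptor, at 71.0 and 191 CPM, and Pparg, their regulator, at 42.8 and 145 CPM. Tcf15, which acts with Meox2 on fatty acid uptake, stood at 24.6 and 249 CPM, while Meox2 itself stood at 409 and 390 CPM. Apoe was the one higher gene, at 12647 CPM in vEC, 5201 CPM in capEC and 5177 CPM in aEC. Its level in fibroblasts was 11883 CPM, and within Endo-1 the ratio to capEC was 3.06. The part of fibroblast RNA in the Apoe level was not tested.

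Arterial genes were also low. Of 21, 1 was higher and 12 lower in vEC than in capEC, with a median log2 ratio of -1.23. Gja4, the gap junction protein connexin 37, stood at 7.74 CPM in vEC, 93.7 CPM in capEC and 207 CPM in aEC, 26.8-fold lower in vEC than in aEC (17.9 to 41.5). Efnb2, the arterial ephrin, stood at 48.1, 220 and 226 CPM, and Sox17, an arterial transcription factor, at 164, 383 and 383 CPM. For Efnb2 and Sox17 the levels of capEC and aEC lay close together and that of vEC lower, while Gja4 also differed between capEC and aEC. Bmx, an arterial kinase gene, did not follow, at 26.8, 17.1 and 25.0 CPM. Fbln2, a matrix gene in the arterial list, was the higher one, at 190, 36.0 and 120 CPM, with 237 CPM in fibroblasts and 169 CPM in the Endo-1 vEC cells.

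The Notch list, which overlaps the arterial one, had 0 higher and 4 lower of 17. Hey1, a direct target of Notch, stood at 7.46 CPM in vEC, 58.4 CPM in capEC and 76.2 CPM in aEC, 7.83-fold lower than in capEC (5.26 to 12.1). Notch4 stood at 29.3, 98.9 and 94.9 CPM, and Hes1 at 28.2, 58.0 and 57.4 CPM. The ligand Jag1 stood at 35.7, 45.4 and 129 CPM and Dll4 at 53.9, 107 and 94.9 CPM, within 2-fold of capEC over all cells and 2.19-fold lower within Endo-1. The ligand Dll1 had like levels, at 41.2, 36.0 and 27.5 CPM.

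In the VEGF, angiopoietin and apelin list, 1 of 20 was higher and 6 lower, beside 3.58% and 4.54% of all genes. Among the 6, Esm1, Apln and Kdr were also counted in the capillary list. Kdr, the main receptor of VEGF, stood at 265 CPM in vEC, 768 CPM in capEC and 367 CPM in aEC, and Nrp1, its coreceptor, at 215, 819 and 478 CPM. Apln, the apelin gene of capillary tips, stood at 11.1, 126 and 12.5 CPM. The receptors Flt1 (1249, 1844 and 1267 CPM), Tek (342, 322 and 348 CPM) and Tie1 (157, 194 and 134 CPM) stayed within 2-fold. Calcrl, the receptor of adrenomedullin, stood at 755, 383 and 301 CPM, just under 2-fold against capEC at 1.97 and 2.08 times within Endo-1.

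Of 35 endothelial transcription factors, 3 were higher and 8 lower than in capEC, beside 3.58% and 4.54% of all genes. Tox2 had the largest ratio, 17.1 (9.02 to 36.4), at 38.4 CPM in vEC, 2.25 CPM in capEC and 1.25 CPM in aEC, and 10 cells held 48.2% of its UMIs. Nr2f2 was given above and Foxf1 stood at 22.4 against 10.8 CPM, a difference within 2-fold in Endo-1 alone. Klf2, a flow-responsive factor, stood at 629, 1534 and 1162 CPM, Bcl6b at 17.1, 89.9 and 33.7 CPM, Tbx3 at 13.8, 63.2 and 49.9 CPM and Prdm1 at 7.19, 33.7 and 26.2 CPM. Mecom (587, 583 and 790 CPM), Klf4 (597, 691 and 765 CPM) and Fli1 (548, 430 and 335 CPM) stayed within 2-fold.

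Of 27 basement membrane and matrix genes, 2 were higher and 10 lower than in capEC. Col4a1, the main collagen of the basement membrane, stood at 494 CPM in vEC, 1649 CPM in capEC and 955 CPM in aEC, 3.34-fold lower than in capEC (3.17 to 3.52), and its partner Col4a2 at 256, 622 and 459 CPM. Lama4, the laminin chain of small vessels, stood at 26.4 CPM in the Endo-1 vEC cells and 295 CPM in those of Endo-2, against 356 CPM in fibroblasts. Eln, the elastin gene, was higher, at 201 against 64.7 CPM, with 203 CPM in Endo-1, 194 CPM in Endo-2 and 203 CPM in fibroblasts.

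Of 17 barrier and transport genes, 1 was higher and 7 lower, and within Endo-1 3 were higher and 6 lower of 15. Cldn5, the tight junction claudin of endothelium, stood at 77.7 CPM in vEC, 368 CPM in capEC and 172 CPM in aEC, 4.73-fold lower than in capEC (4.17 to 5.39) and 6.61-fold lower within Endo-1. Cav1, the coat protein of caveolae, stood at 407, 1253 and 754 CPM, and Cavin2 at 152, 633 and 375 CPM. Plvap, the protein of the diaphragms of fenestrae and caveolae, ran the other way at 2686, 1765 and 1179 CPM, within 2-fold of capEC. Slco2a1, the prostaglandin transporter, was the one higher gene, at 83.2, 16.4 and 31.2 CPM.

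Of 16 genes of MHC presentation, 2 were higher (RT1-DMa and RT1-DMb) and 1 lower (Cd274) than in capEC, beside 3.58% and 4.54% of all genes. Against aEC, 2 were higher (RT1-DMa and Nlrc5) and 5 lower of 15, beside 4.93% of all genes higher and 6.44% lower. The 5 were the class II genes RT1-Bb, RT1-Db1, RT1-Ba and RT1-Da and the invariant chain gene Cd74, at 33.2 CPM in vEC and 161 CPM in aEC. Within Endo-1 the count against aEC was also 2 higher and 5 lower, of 14, but with Cd274 in place of RT1-Da among the lower genes. Against capEC within Endo-1, 1 of 14 was higher (RT1-DMa) and 1 lower (Cd274). Of 21 interferon-stimulated genes, 0 were higher and 3 lower than in capEC, beside the same 3.58% and 4.54%. Of 23 immediate-early and heat-shock genes, which move with tissue handling, 1 was higher (Atf3) and 1 lower (Egr3). Their median log2 ratio was 0.14, and both counts lay near the shares over all genes. When cells were thinned to an equal depth, Atf3 fell within 2-fold of capEC.

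Against aEC, 426 of 8645 genes were higher in vEC (4.93%) and 557 lower (6.44%). This split turned when the Endo-2 cells were left out, to 549 higher and 409 lower of 7572, or 7.25% and 5.4%, and 18 of the 29 Endo-2 cells labelled aEC exceeded 5000 CPM on the fibroblast list. It also turned when the 3 types were scaled by median-of-ratios factors, to 540 higher and 426 lower, which moved the median log2 ratio to aEC up by 0.15. Mural markers, the genes of pericytes and smooth muscle, moved with this comparison: their summed level was 335 CPM in vEC and 810 CPM in aEC, and 301 and 887 CPM within Endo-1. Per cell the order within Endo-1 was the other way. The median was 163 CPM in vEC and 103 CPM in aEC, with a mural UMI in 78.2% and 55.7% of cells. The highest aEC cell held 14126 CPM. Of 9 mural genes, 6 had a lower summed level in vEC than in aEC, with Myh11 at 1.38 against 99.9 CPM, and 5 of 8 within Endo-1. Of 10 fibroblast markers, 8 were lower than in aEC over all cells and 1 of 7 within Endo-1. The part of mural and fibroblast RNA in the differences from aEC was not tested. The venous list gave 9 higher, Selp and Ankrd55 among them, and 0 lower of 15, and the arterial list 0 higher and 12 lower of 17. By the same rule as above, the largest ratios were those of Selp, Ubd, at 94.3 (51.2 to 197), Upk3bl1 and Ankrd55, at 55.8 (23.8 to 172). Besides Gja4, the lowest were Btnl9, 21.1-fold lower in vEC, Slc26a10, 17.4-fold, Tgfb2, Nxph1, 10.8-fold, Clic5, 10.6-fold, Fbln5, 9.72-fold, and Rgcc, 9.65-fold. Plvap (2.28) and Aqp1 (2.68) were also at least 2-fold higher in vEC than in aEC, and Meox1, a homeobox gene, was 4.81 times higher, at 114 against 23.7 CPM.

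The vEC cells varied among themselves. Of the 344, 137 (39.8%) held a UMI of all 3 of Selp, Ankrd55 and Spns2, 110 held 2 of them, 74 held 1 and 23 (6.69%) held none. In capEC, 8 of 636 cells (1.26%) held all 3 and 355 (55.8%) held none. These counts moved with depth: after each cell was thinned to 2000 UMIs, which left 332 vEC cells, 18 (5.42%) held all 3 and 81 (24.4%) none. A Selp UMI was found in 73.5% of vEC cells, and in 45.5% after thinning. The share was 80.6% in the Endo-1 cells, 7.68% in the Endo-1 capEC cells and 0.341% in fibroblasts, which have a median of 9006.5 UMIs. The part of free RNA in these shares was not tested.

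Selp was uneven between cells. In the 284 Endo-1 vEC cells the lowest per-cell level was 0, the lower quartile 98.0 CPM, the median 348 CPM, the upper quartile 1129 CPM and the highest 12604 CPM. Pecam1 was steadier, with quartiles at 937 and 1783 CPM around a median of 1279 CPM. Cells with a Selp UMI more often had one of Sele, in 75.5% against 49.1% of Endo-1 cells without Selp, and of Vcam1, in 46.7% against 27.3%. After thinning these shares were 48.6% and 31.2% for Sele and 30.7% and 20.8% for Vcam1. For Il33 the thinned shares lay close together, at 70.7% and 71.5%, and for Ankrd55 they were 35.0% and 41.7%.

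A small set of cells made nearly all Glycam1, a mucin-like ligand of L-selectin known from high endothelial venules, the vessels through which lymphocytes enter lymph nodes. The gene stood at 5190 CPM over all vEC cells, 1075 CPM in capEC and 3.75 CPM in aEC. In vEC, 15 cells with at least 20 UMIs held 18732 of the 18774 UMIs (99.8%), the highest of them 5953. The other 329 cells held 42 UMIs in all. In capEC, 1 cell held 4772 UMIs. Of the 15 cells, 12 were in Endo-1 and 3 in Endo-2, 3 vEC cells lay near the cut-off of 20 UMIs, and the median depth of the 15 was 15920 UMIs against 9404 in the rest.

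The 12 Endo-1 cells were set against the 272 other Endo-1 vEC cells with Glycam1 taken out of both totals. This set was chosen after its values were seen, so the differences are a description of these cells. Fut7 stood at 103 CPM against 4.39 CPM, a ratio of 23.5 (11.03 to 52.3), but only 4 of the 12 cells held a UMI and 1 cell held 17 of the 21. Chst4, the sulphotransferase of high endothelial venules, had 5 UMIs in 4 cells against 1 UMI in the 272. B3gnt3 stood at 53.9 against 13.2 CPM (ratio 4.10, 1.88 to 8.23) and Chst1 at 83.3 against 44.2 CPM (1.88, 1.06 to 3.14). Enpp2, the autotaxin of high endothelial venules, stood at 456 against 127 CPM (3.58, 2.82 to 4.52), with UMIs in 11 of the 12 cells. Ubd stood at 3368 against 1126 CPM, with UMIs in all 12, and Vcam1 at 907 against 311 CPM, with 57.3% of the UMIs in 1 cell. Ccl20 had 54 UMIs in 3 of the 12 cells and 3 UMIs in the 272.

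The 3 Glycam1-rich cells of Endo-2 carried other signals. With them added, the 15 cells held 6563 CPM of Ccl21, of which 1 cell had 68.0%, against 53.9 CPM in the 12. Reg3g had 321 UMIs in the 15 cells, 320 of them in 1 cell, and 1 UMI in the 12. Fut7 stood at 218 CPM and Enpp2 at 811 CPM in the 15.

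Venous genes differed among themselves in the 12 cells. Vwf stood at 83.3 CPM against 489 CPM in the other cells, 0.171 times the level (0.0990 to 0.274), and Ackr1 at 240.2 against 481 CPM. Selp stood at 368 against 1056 CPM, and 1 cell held 45 of the 75 UMIs. Nr2f2 stood at 304 against 300.5 CPM, and Ankrd55 was at 515 against 372 CPM, 1.38 times the level (1.12 to 1.69). Pecam1 was present in all 12 cells, at 936 against 1399 CPM. Of the markers of other cell types, Col1a1 was lower, at 9.80 against 70.2 CPM, Krt8 stood at 9.80 against 10.2 CPM, and Epcam and Krt18 had 0 UMIs against 7.31 and 8.04 CPM. Madcam1, the mucosal addressin, had 1 UMI in the 12 cells and 43 in the 272.

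In the tissue section, RCTD (robust cell-type decomposition) had given bins of the section weighted cell-type labels, with the single-cell data among its references. A bin is a small area that can hold parts of several cells, and its first label is an estimate. The first label was vEC on 487 bins of 20 units, 0.0823% of the labelled bins. Of these, 64.1% were marked confident and 99.6% had a second label, most often of thymocytes (DN, double-negative, in 32.4%). The median weight of the first label was 0.401. The vEC bins held a median of 478 UMIs, against 326 over all labelled bins.

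The vEC label was most frequent in the region the authors named mEFA, at 96 of 19354 labelled bins, 0.496% (0.402 to 0.605). It was on 84 of 40180 bins in the medullary region mECA, 0.209% (0.167 to 0.259), on 133 of 123373 bins in the capsular region, 0.108% (0.0903 to 0.128), and on 174 of 409180 bins in the cortex, 0.0425% (0.0364 to 0.0493). For first labels of these bins the order was therefore mEFA, mECA, capsular region and cortex, and no neighbours' intervals overlapped. The step from mECA to the capsular region depended on the definition. When any label was counted, their shares were 0.836% (0.750 to 0.930) and 0.832% (0.782 to 0.885). Among bins at or above the median depth they were 0.215% (0.172 to 0.267) and 0.144% (0.115 to 0.178). The share of bins in the medulla, both its regions together, was 7.11 times that in the cortex (5.77 to 8.76). This ratio moved with the definition of a bin: it was 12.5 (9.74 to 16.2) among confident first labels, 8.44 (6.85 to 10.4) among non-epithelial first labels, 3.52 (2.85 to 4.35) among bins at or above the median depth, 3.46 (2.89 to 4.15) among segmented cells and 1.83 (1.69 to 1.99) when any of a bin's labels was counted.

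The other endothelial labels lay differently. The first label aEC was most frequent in the capsular region, where its share was 11.5 times that of the cortex (8.53 to 15.6), against 2.54 (2.02 to 3.18) for vEC. These ratios too moved with the definition: for aEC and vEC they were 9.69 and 1.98 among confident first labels, 4.97 and 1.605 among bins at or above the median depth, 4.23 and 1.45 among segmented cells, and 2.12 and 1.26 when any label was counted. The capsular peak of aEC moved as well. Among confident first labels its share was 0.207% (0.103 to 0.370) in mEFA and 0.154% (0.124 to 0.188) in the capsular region. Among segmented cells these shares were 0.130% and 0.131%. Between mEFA and mECA the share of vEC had a ratio of 2.37 (1.77 to 3.18), that of capEC 1.47 (0.700 to 3.07) on 12 and 17 bins, and that of aEC 1.35 (0.707 to 2.59) on 15 and 23 bins. The intervals of all 3 overlap at these counts. When any of a bin's labels was counted, the ratio was 2.39 (2.07 to 2.76) for vEC, 2.44 (1.85 to 3.23) for capEC and 1.61 (1.32 to 1.96) for aEC, so that the intervals of vEC and aEC did not overlap and those of vEC and capEC did. All values come from 1 section, and neighbouring bins can share a vessel, which counting intervals do not cover.

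**Figure D5:**
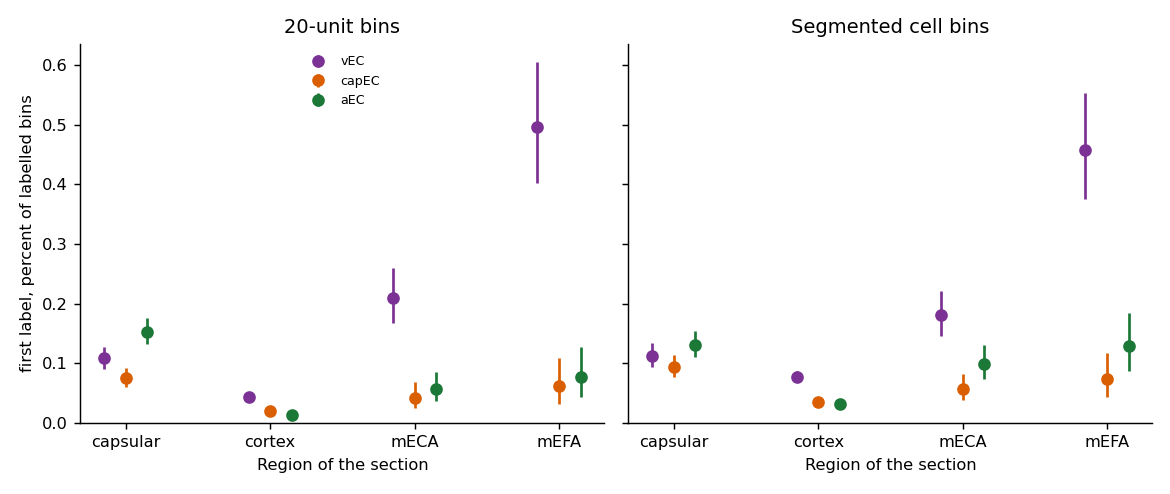
Share of labelled bins (percent) whose first label is vEC, capEC or aEC in 4 regions of the section, with 95% exact binomial intervals, for bins of 20 units (left) and segmented cells (right). The vEC share is highest in mEFA in both, at 0.496% and 0.458%, and aEC is the most frequent of the 3 labels in the capsular region.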

How the data were processed

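The stromal library was deposited as a matrix of UMI counts for 34034 features and 16160 barcodes; per the file headers the authors used Cell Ranger 8.0.0. Seurat 5.3.0 and the build mRatBN7.2 are named in the submitters' processing notes, and the gene annotation is not given in the sources used here. The authors' deposited tables give a cluster and a projected label for 13226 cells, with 501 to 6999 genes and at most 4.99 percent mitochondrial UMIs per cell, and their label weights in the section are a fraction per bin. Map and bin coordinates, deposited as score values, were not used. Labels were projected on references that included mouse data, per the labels' design text. The thymocyte library served only for shared barcodes, of which there were 38 over all cells.

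UMIs were summed per label with Python 3.11.15, NumPy 2.4.6, SciPy 1.17.1 and pandas 2.3.3, and figures were drawn with matplotlib 3.10.9. Intervals for CPM are exact Poisson, for shares exact Clopper-Pearson, for ratios of CPM exact conditional binomial, and for ratios of bin shares log-normal. PCR duplicates are collapsed by UMIs, and all intervals cover counting error only. A group at 0 was set to 3 UMIs for a bound, and no ratio was given where both groups had 3 or fewer. Thinning to 2000 UMIs per cell used 1 random draw and left 12 vEC cells out. No doublet caller was run, and whether doublets had been removed is not given in the sources used here. The counting step was tested on simulated data.

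Named genes were the markers, the members of 31 lists (520 of 523 genes were in the matrix) with at least 20 UMIs in an endothelial type, the 20 highest and 10 lowest ratios to capEC, the 12 highest and 8 lowest to aEC, and the 12 largest ratios to the next type, all ratios being ranked over genes that reached 100 UMIs and were detected in 25% or more of the higher type's cells. Genes known only by an identifier were left out, and 1 list member is not reported here. Members and lists were chosen with earlier results of these data known.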

Additional observations from a re-analysis of the deposited data

Results flagged for a closer look

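Barcodes that the authors left without an annotation entered no comparison, yet the library held 2934 of them, and venous marker genes were present there. Selp had 138 UMIs in 28 barcodes, 15.9 CPM (13.4 to 18.8), and Ankrd55 had 122 UMIs in 60 barcodes, 14.1 CPM (11.7 to 16.8). All cells with fibroblast labels had 0.367 CPM of Selp and 3.16 CPM of Ankrd55 when summed. Ankrd55 was uneven among them, and TMC4 held 12.5 CPM (10.6 to 14.8), close to the level in the unannotated barcodes. Pecam1 stood at 53.4 CPM in the same barcodes, against 1224 CPM in vEC. The median depth of these barcodes was 1219.5 UMIs, against 9585.5 in vEC, and their part in the vEC count was not tested.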

How the results depend on the processing

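No paired analysis was possible because all 3 cell types were in 1 library. The count of genes at least 2-fold higher in vEC than in capEC, 357 of 9973 (3.58%) as reported, was 195 of 5868 (3.32%) with each cell thinned to 2000 UMIs. It was 150 of 3602 (4.16%) without cells holding 3 or more UMIs of other cell types, which left 40 vEC, 143 capEC and 13 aEC cells. With a floor of 200 UMIs it was 183 of 6158 (2.97%) and with no floor 805 of 13020 (6.18%). The count of lower genes, 453 (4.54%), was 233 (3.78%) with a floor of 200 UMIs and 1125 (8.64%) with none. Without cells holding other markers it was 349 of 3602 (9.69%). Against aEC the counts of 426 higher (4.93%) and 557 lower (6.44%) became 220 and 134 of 3202 (6.87% and 4.18%) when thinned. They were 133 and 84 of 1187 (11.2% and 7.08%) without cells holding other markers. With a floor of 200 UMIs they were 178 and 170 of 4061 (4.38% and 4.19%), and with none 773 and 1703 of 12408 (6.23% and 13.7%). The mean of the cells' CPM gave 513 and 481 of 8507 (6.03% and 5.65%). The cause was not tested beyond the smaller number of genes that these settings leave to count. The ratio of Selp to capEC, 20.7, was 28.5 with the mean of the cells' CPM, 25.5 when thinned and 35.6 without cells holding other markers. That of Ankrd55, 23.8, was 31.9 when thinned, 56.2 without those cells, 38.3 in Endo-1 and 32.5 without Glycam1-rich and lymphatic cells, and that of Spns2, 1.67, was 1.98 without cells holding other markers. The share of vEC cells was 2.15% when Endo-1 alone was counted, and the share of vEC cells with a Selp UMI, 73.5%, was 45.5% when thinned and 80.6% in Endo-1. The ratio of mEFA to mECA lay between 1.97 and 2.86 under 5 other definitions.

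Of 113 named genes at least 2-fold apart between vEC and capEC, 110 stayed so with the mean of the cells' CPM, 110 with median-of-ratios factors, 112 with mitochondrial, ribosomal protein and haemoglobin genes out of the total, 100 of 105 when thinned, 91 of 93 without cells holding other markers, 108 without the deepest 5% of cells, 111 in Endo-1 and 108 of 111 without Glycam1-rich and lymphatic cells. The 5 that thinning brought within 2-fold were Ptgs1, St3gal4, Tgfb2, Atf3 and Foxf1. Among ratios at least 2-fold apart, only that of F3 to aEC changed direction, to 1.71 in Endo-1, and smaller ratios were not checked for direction. The choices of Endo-1 alone, of Glycam1-rich cells and of confident bins were made after seeing the data. The cluster labels alone could not be used, since no cluster is named for vEC. Among bins given 1 type, 2 were labelled vEC, and these were cortical. With 0 such bins on either side, that setting gave no ratio of mEFA to mECA. The depth of 90 aEC cells limits ratios to aEC: Selp had only 2 UMIs there.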
